A study of Mus musculus with 2 samples.

Results

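The proteasome subunit genes were described in innate lymphoid cells of mouse skin, lymphocytes that lack a rearranged antigen receptor. A gene was a member when its symbol began with Psm, a letter from a to g and a digit, and 50 of the 18786 genes in the deposited table met this rule. CD45+, lineage-negative, Thy1.2+ cells had been sorted from collagenase-digested skin of C57/BL6 mice, 1 library at postnatal day 1 and 1 at day 14, and captured with a 10x Genomics 5' kit. Both groups were of the same strain, and the labels give no other allele or agent for either.

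The table counts unique molecular identifiers (UMIs), tags that let copies of 1 RNA molecule be counted once, in 5246 cells. Cell names end in 1 of 2 suffixes, called cell set 1 and cell set 2 here. Neither suffix matches a day in the labels, so no value below is assigned to an age and the ages were not compared. Each set was taken as 1 library, since there are as many suffixes as libraries, though the labels do not state this. There is then no replicate, so no test between cells was run and no p-value is given. All intervals are 95% intervals of counting error and do not cover differences between animals. Whether animals were pooled is not given in the sources used here.

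Cells with at most 10% mitochondrial UMIs were kept, 1441 in set 1 and 3508 in set 2. A cell was called cycling with at least 3 UMIs summed over Mki67, Top2a and Birc5, genes of dividing cells that are not members. This gave 451 cycling cells in set 1 (31.3%, exact Clopper-Pearson interval 28.9 to 33.8%) and 177 in set 2 (5.05%, 4.35 to 5.82%). Just outside this threshold, 75 cells of set 1 and 86 of set 2 had 2 such UMIs, and just inside it 40 and 27 had 3. The class is thus a range of a marker count and not a cell type. Median depth was 15545 UMIs per cell in cycling and 9283.5 in not cycling cells of set 1, and 9019 and 4747 in set 2. The sets shared 4 barcodes. The sorted identity was checked on markers of group 2 innate lymphoid cells (ILC2), the type common in skin. The summed level of 10 ILC2 markers was 3837 UMIs per 1000000 (CPM) in cycling and 4155 in not cycling cells of set 1, and 4546 and 4998 in set 2. Gata3, a transcription factor of these cells, was at 541, 605, 475 and 606 CPM in that order. Rora was the largest part of the sum of the 10 markers, at 1574, 1823, 1691 and 1776 CPM. Il1rl1 (13.45 to 22.48 CPM), Arg1 (11.4 to 25.26) and Klrg1 (3.929 to 6.178) were the lowest of the list. Cd3e, which defines T cells, was at 5.19, 9.05, 1.17 and 6.44 CPM. The 8 T cell markers in the table summed to 1212, 1205, 1247 and 1484 CPM, of which Cd3g, Trbc1 and Trbc2 made up the most, and 6 myeloid markers summed to between 1.17 and 7.58 CPM in the 4 groups.

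The proteasome is the barrel-shaped protease that breaks down ubiquitin-tagged proteins. Its 20S core is built of outer alpha rings and inner beta rings, and the beta subunits Psmb5, Psmb6 and Psmb7 carry the cutting sites. The 19S regulatory particle caps the core: its ATPases (Psmc genes) unfold the substrate, and its non-ATPase subunits (most Psmd genes) bind and remove ubiquitin. Lymphocytes also make the immunoproteasome, in which Psmb8, Psmb9 and Psmb10 take the places of Psmb5, Psmb6 and Psmb7, and which shapes peptides for class I molecules. Psme1 and Psme2 form the PA28 activator, which caps the core in place of the 19S particle.

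The stretches before the start sites of Psmb5, Psmb6, Psmc6 and Psmd12 are shown as those of core and 19S subunits that hold the letters TGACNNNGC, a core of the antioxidant-response type of element bound by the transcription factor Nrf1 (Nfe2l1), which is known to drive proteasome genes. Sequences are from RefSeq on GRCm38.p6, 5′ to 3′ on the gene's strand, limited to bases outside annotated exons, with the match on either strand in capitals.
Psmb5, chr14:54618023-54618245, minus strand: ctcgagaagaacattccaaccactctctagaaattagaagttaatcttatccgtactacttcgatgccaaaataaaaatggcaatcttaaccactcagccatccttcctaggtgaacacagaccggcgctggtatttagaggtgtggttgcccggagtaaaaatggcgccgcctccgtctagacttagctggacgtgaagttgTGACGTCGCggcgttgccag
Psmb6, chr11:70525107-70525356, plus strand: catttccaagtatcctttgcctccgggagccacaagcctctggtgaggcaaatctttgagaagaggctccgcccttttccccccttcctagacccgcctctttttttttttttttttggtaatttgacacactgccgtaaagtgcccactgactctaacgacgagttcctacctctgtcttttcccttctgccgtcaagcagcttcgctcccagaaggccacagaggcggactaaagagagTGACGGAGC
Psmc6, chr14:45329574-45329787, plus strand: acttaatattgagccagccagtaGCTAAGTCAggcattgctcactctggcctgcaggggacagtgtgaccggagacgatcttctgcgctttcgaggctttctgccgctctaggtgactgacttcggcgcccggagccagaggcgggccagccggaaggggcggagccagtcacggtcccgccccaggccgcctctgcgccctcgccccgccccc
Psmd12, chr11:107479278-107479483, plus strand: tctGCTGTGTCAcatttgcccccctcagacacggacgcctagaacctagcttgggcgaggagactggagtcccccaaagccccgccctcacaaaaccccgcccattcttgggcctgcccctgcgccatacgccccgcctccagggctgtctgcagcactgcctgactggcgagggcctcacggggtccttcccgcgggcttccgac

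Of the 50 members, 42 had a RefSeq window of 300 bases around a start site, 45 windows in all. TGACNNNGC, searched on both strands, was in 6 of the 45 windows (13.3%) and in 12.4% of all 32851 windows, so it was about as frequent before members as elsewhere. The other 2 members with it were the chaperone Psmd9 and the activator Psme4. All 6 were called higher in cycling cells of set 2, as were 35 of the 46 members tested there (32.3% of all genes). CCAAT, also searched on both strands, was in 15 member windows (33.3%) and in 37.4% of all windows. An interferon-response type of motif, GAAA followed after any 2 bases by another GAAA, searched on both strands, was in 5 member windows (11.1%; Psmb3, Psmd4, Psmd9, Psme1 and Psmg4) and in 3.44% of all windows. TTCNNNGAA, the motif bound by STAT factors, was in 3 (6.67%; Psmb8, Psmd2 and Psmg1) and in 8.3% of all windows. The 2 immunoproteasome sites below are shown because Psmb8 and Psmb9 have the departures described later, and they are clipped because their windows lie in annotated exons, with TTCNNNGAA in capitals for Psmb8 and CCAAT on the opposite strand for Psmb9.
Psmb8, chr17:34198088-34198116, plus strand: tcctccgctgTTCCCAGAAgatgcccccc
Psmb9, chr17:34187331-34187350, minus strand: gcgcagccgctgATTGGaaa

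Summed over all 50 members, proteasome genes made up 0.649% of the UMIs of cycling cells and 0.572% of those of not cycling cells in set 1. In set 2 the shares were 0.591% and 0.413%. The median cell held 97 and 49 member UMIs in set 1 and 53 and 18 in set 2, and 14 not cycling cells of set 2 held none. In CPM the sums were 6491 and 5724 in set 1 and 5907 and 4128 in set 2, so the not cycling cells of set 2 stood below the other 3 groups. Levels in all 4 groups are in the plot of member levels by role. Psma8, the alpha subunit of germ cells, had 2 UMIs in all kept cells and Psmb11, the beta subunit of thymic epithelium, had 3, so neither was compared. Psme2b had 1.75 to 2.77 CPM and closely resembles Psme2, so its reads are uncertain. Psmc3ip meets the rule by its symbol but encodes a partner in homologous recombination and no subunit.

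**Figure D1:**
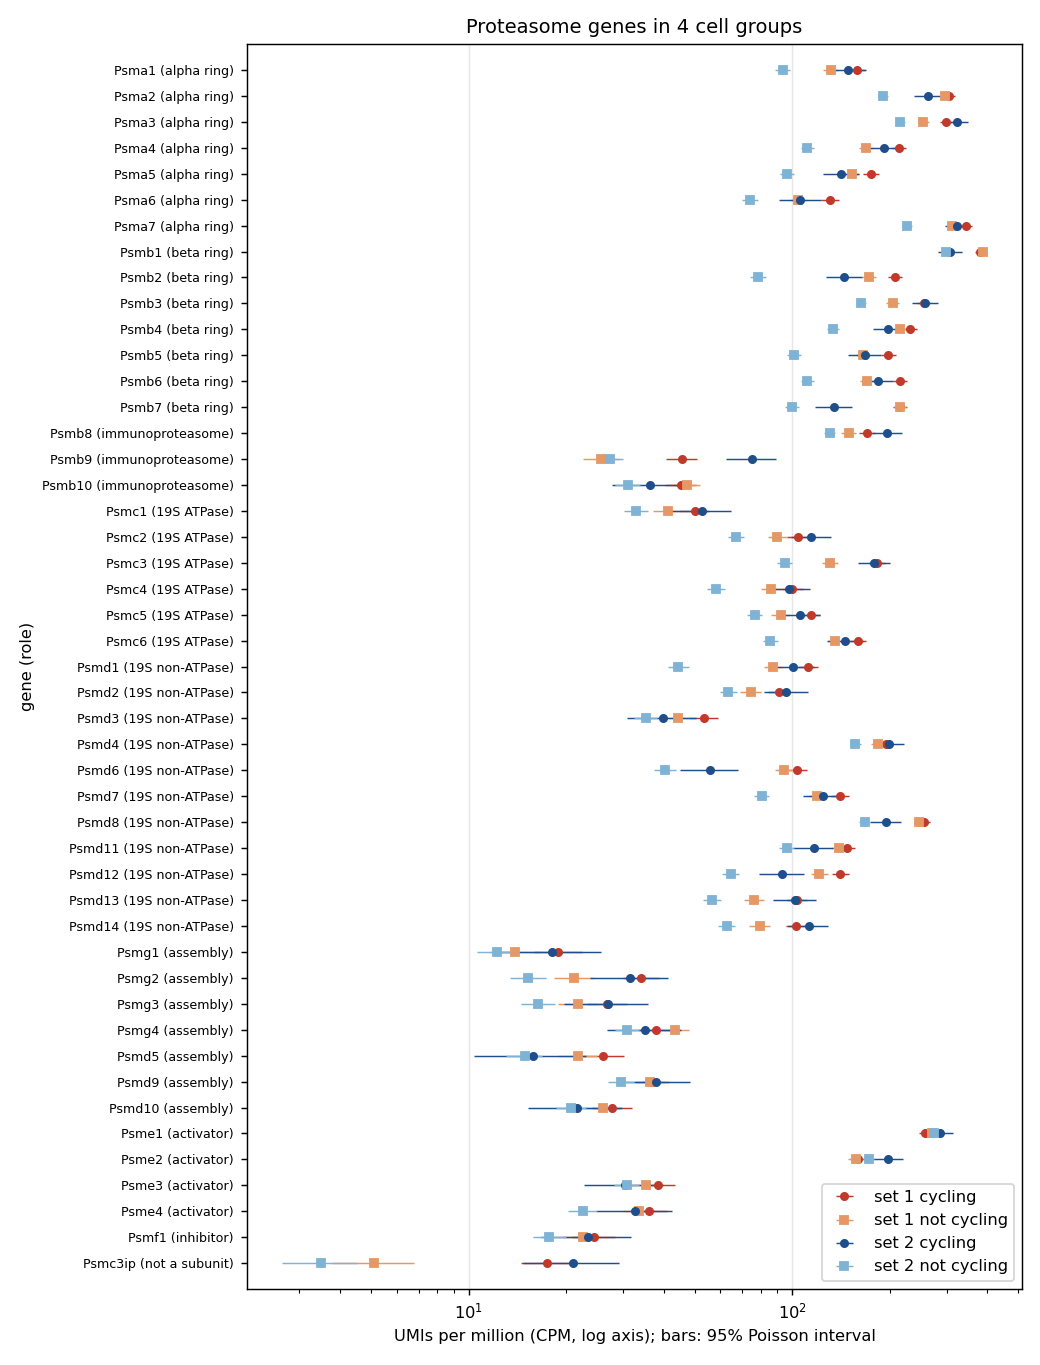
UMIs per 1000000 (CPM, log axis) of the 47 members with at least 100 UMIs in all kept cells, by role, in cycling (circles) and not cycling cells (squares) of set 1 (red, orange) and set 2 (blue, light blue), with exact Poisson 95% intervals. The not cycling cells of set 2 lie lowest for most subunits of the core and the 19S particle. The activator Psme1 is nearly level in the 4 groups, and Psme2 runs from 157 to 198 CPM, highest in cycling cells of set 2.

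With each set taken as 1 library, its cycling and not cycling cells share that library. Theirs is then the comparison least touched by library differences. A gene was called higher when its CPM was at least 25% above that of the other group and lower when it was at least 20% below (a ratio of 0.8), with at least 100 UMIs over both groups. In set 2, 35 of the 46 members tested were higher in cycling cells and 0 were lower, which is 76.1% against 32.3% of all 8062 genes called higher. The median log2 ratio was 0.56 for members and 0.11 for all genes. In set 1, 11 of 47 were higher and 0 lower, 23.4% against 22.5% of all 8085 genes, so the share of members called was near that of all genes there. The median of members was 0.23 and that of all genes 0.05, and 43 of the 47 lay above a ratio of 1 (55.7% of all genes did).

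The structural parts of the proteasome were higher together in cycling cells of set 2. All 7 measured alpha subunits were called there, with a summed level of 1497 CPM in cycling and 1007 in not cycling cells, a ratio of 1.49 (1.43 to 1.55). Psma4, an alpha subunit, was at 192 and 111 CPM. Of the 7 constitutive beta subunits, 6 were called, and their sum was 1394 against 986 CPM (1.41, 1.35 to 1.48). Psmb2 was at 145 CPM (128 to 164) in cycling and 78.3 (74.1 to 82.7) in not cycling cells of set 2, and at 208 and 173 in set 1. Psmb1, a non-catalytic beta subunit, went against its ring, with 308 and 299 CPM in set 2 and 381 and 387 in set 1.

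The ATPases of the 19S particle had the highest ratio of the larger roles. All 6 were called in set 2, with a sum of 695 CPM in cycling and 415 in not cycling cells (1.68, 1.57 to 1.78), and the sum in set 1 was 711 and 576 (1.24, 1.19 to 1.28). Psmc3 was at 180 and 94.6 CPM in set 2 (1.90, 1.67 to 2.15), and at 183 and 131 in set 1 (1.40, 1.29 to 1.51). Among the 11 non-ATPase subunits, 8 were called in set 2, and Psmd3, Psmd8 and Psmd11 were not. Psmd1, a large scaffold subunit that binds ubiquitin receptors, was at 101 CPM (86.1 to 117) in cycling and 44.4 (41.3 to 47.8) in not cycling cells of set 2, a ratio of 2.26 (1.91 to 2.68). In set 1 it was at 112 and 87.5 CPM (1.28, 1.16 to 1.41). Psmd14, the enzyme that removes ubiquitin chains at the pore, had ratios of 1.79 in set 2 and 1.30 in set 1. Psmd13, another lid subunit, had 1.80 and 1.36. In cells of 5000 to 10000 UMIs the set 1 log2 ratios of Psmd14 and Psmd13 turned to -0.15 and -0.34.

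Assembly chaperones help build the rings and the base and leave the finished particle. Of 7, 4 were called in set 2 and 2 in set 1, where 32.3% and 22.5% of all genes were called higher. The set 2 calls of Psmg1 (0.979 to 2.17) and Psmd9 (0.976 to 1.67) had intervals that include a ratio of 1. Psmg2 had the highest chaperone ratio in both sets, at 31.6 and 15.3 CPM in set 2 (2.07, 1.51 to 2.79) and 34.1 and 21.2 in set 1 (1.61, 1.33 to 1.95). Psmg4 lay at 37.9 CPM in cycling and 43.5 in not cycling cells of set 1. The activators stood apart from the core. Psme1 was at 258 and 270 CPM in set 1 and at 287 and 274 in set 2, so its groups differed little. Psme2 was at 160 and 157 CPM in set 1 and 198 and 173 in set 2. Psme3, the nuclear activator, was at 38.6 and 35.3 and at 30.4 and 30.8 CPM. Psme4, the large PA200 activator, was the 1 activator called, at 32.8 and 22.5 CPM in set 2. Psmf1, the PI31 inhibitor, had ratios of 1.09 in set 1 and 1.32 in set 2, the second with an interval from 0.921 to 1.84.

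**Figure D2:**
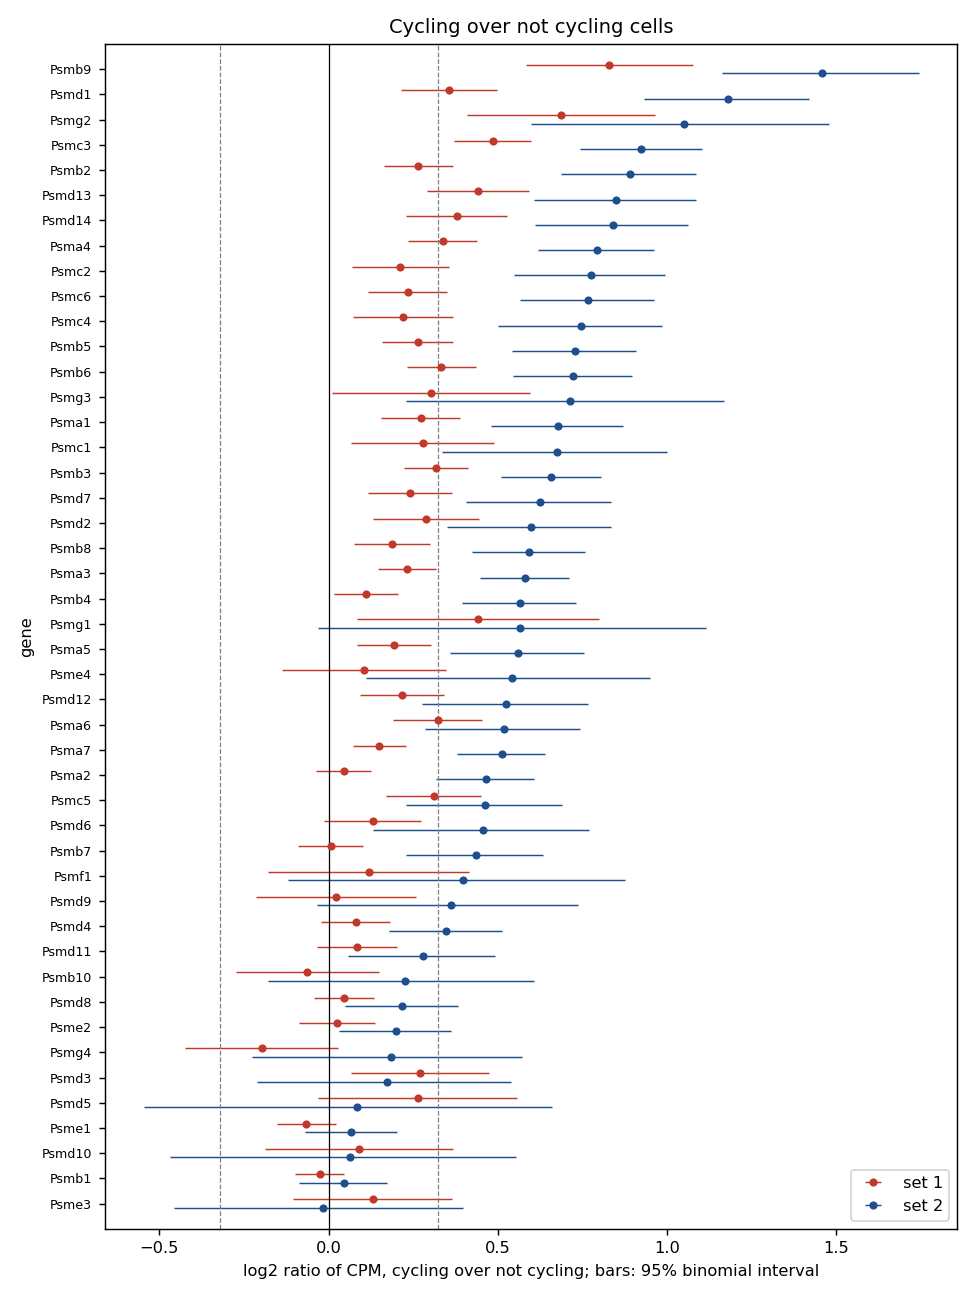
log2 ratio of CPM in cycling over not cycling cells for each member tested in set 2 (blue), with the same member in set 1 (red) and exact binomial 95% intervals; dashed lines mark the call, 25% above or 20% below. Psmb9, Psmd1 and Psmg2 have the highest ratios in set 2, and Psmb1 and Psme1 lie near 0 in both sets.

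Psmb9, the immunoproteasome subunit at the Psmb6 position, had the highest ratio of any subunit in both sets. Psmb9 was at 45.6 CPM (40.8 to 50.8) in cycling and 25.7 (22.5 to 29.1) in not cycling cells of set 1, a ratio of 1.78 (1.499 to 2.11). The same classes of set 2 had 74.9 CPM (62.5 to 89.0) and 27.3 (24.8 to 29.9), which is 2.75 times (2.24 to 3.35). Its call held in all 17 alternatives computed for each set, with log2 ratios from 0.50 to 1.24 in set 1 and from 0.95 to 1.62 in set 2. In cells thinned to 4000 UMIs, a Psmb9 UMI was found in 15.2% of cycling and 9.32% of not cycling cells of set 1, and in 23.8% and 9.43% of set 2 (unthinned 46.1%, 18.2%, 41.2% and 11.4%). Thinning left out 4 cycling and 56 not cycling cells of set 1 and 9 and 1072 of set 2. The part of free RNA was not tested, since no class of the sort is known to lack this gene.

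Psmb8, at the Psmb5 position, was at 170 and 150 CPM in set 1 (1.14, 1.05 to 1.23) and at 197 and 130 in set 2 (1.51, 1.34 to 1.69). Psmb10, at the Psmb7 position, was at 45.2 and 47.2 CPM in set 1 and 36.3 and 31.0 in set 2, and was called in neither. The 3 immunoproteasome genes therefore did not move as 1 block. Psmb9 lies at chr17:34181987-34187764 on the minus strand of GRCm38, where GENCODE M21 has an exon of Tap1, the peptide transporter, over an exon of Psmb9 on the other strand. Tap1 was at 38.5 and 29.6 CPM in set 1 and at 54.4 and 27.5 in set 2. The strand setting of the counting is not given in the sources used here, so reads of Psmb9 and Tap1 in the shared stretch cannot be told apart. Psma4, Psma5, Psmb5, Psmb7, Psmb8, Psmc3, Psmd1, Psmd3, Psmd9, Psmd13, Psmg3, Psme1, Psme2b and Psmc3ip also share exon bases with another annotated gene.

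Psmc3ip was at 17.4 and 5.11 CPM in set 1 (3.40, 2.42 to 4.85), and at 21.1 and 3.49 in set 2, where it had too few UMIs for a call. It is counted among the 11 members called in set 1.

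The level of members was next read against the amount of the cycling markers. In set 2 the members summed to 4069 CPM in cells with 0 UMIs of the 3 markers, 4480 with 1 to 2, 5551 with 3 to 9, 6114 with 10 to 29 and 6317 with 30 or more. Psmb9 went from 25.5 through 38.1, 63.3 and 74.9 to 105 CPM (70.6 to 151) over the same steps. In set 1 the steps were 5651, 5901, 6272, 6494 and 6641 CPM for the members and 23.0, 32.0, 41.1, 41.7 and 54.0 for Psmb9. Median depth rose over these steps as well, from 8865 to 18624 UMIs per cell in set 1 and from 4653 to 11726 in set 2. In cells of 5000 to 10000 UMIs the first 4 steps of Psmb9 in set 2 were 25.1, 35.4, 49.5 (28.9 to 79.3) and 54.4 CPM (32.8 to 85.0). In set 1 those of Psmb9 were 28.9, 28.4, 57.1 (29.5 to 99.7) and 64.3 CPM (30.8 to 118). The last 2 of these rested on 12 and 10 UMIs. The members in cells of this depth summed to 4164, 4546, 5481 and 5857 CPM over the first 4 steps in set 2. In set 1 they summed to 5144, 5373, 5628 (5311 to 5958) and 5026 (4680 to 5391). The last 2 of these steps held 27 and 20 cells, and their intervals overlapped. The step of 30 or more held 2 cells in set 1, at 7153 CPM (5931 to 8553). In set 2 it held 3 cells, at 6053 CPM (5164 to 7050).

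Depth moved with the members' level inside each class. In not cycling cells of set 1 the members summed to 4766 CPM in cells of 2500 to 5000 UMIs and to 6825 in those of 15000 or more, and in set 2 they went from 3509 CPM below 2500 UMIs to 4570 at 10000 to 15000. In set 1 cycling cells had 4728 CPM (4378 to 5099, 22 cells) and not cycling cells 4898 (4778 to 5020) at 5000 to 7500 UMIs, with overlapping intervals. At 7500 to 10000 cycling cells stood above, with 5878 (5575 to 6192) against 5370 (5275 to 5466). The 2 classes had 6093 (5983 to 6205) and 5937 (5865 to 6010) at 10000 to 15000. At 15000 or more these classes had 6745 CPM (6672 to 6819) and 6825 (6675 to 6977). The intervals of the last 2 bands overlapped. With not cycling cells weighted to the depth of cycling cells, 4 of 47 members were called in set 1 (23.5% of all genes) and the median log2 ratio was 0.05. In set 2 cycling cells stayed above in the 3 bands from 5000 to 15000 UMIs, with 5455 against 4139, 5795 against 4502 and 6144 against 4570 CPM. These bands held 36, 56 and 52 of the 177 cycling cells, and bands with few cells of a class were left out. With the same weighting, 34 of 46 were called there (30.9% of all genes) and the median was 0.50. In cells of 5000 to 10000 UMIs only, an alternative chosen after seeing the data, the medians were 0.04 in set 1 and 0.43 in set 2. Weighting by depth and the narrower range thus both gave a set 1 median near 0 and a set 2 median above 0.4. Thinning every cell to 4000 UMIs, which equalises the UMIs counted but keeps the same cells in each class, left 6370 CPM in cycling and 5541 in not cycling cells of set 1, with 19 of 45 members called (23.4% of all genes). Without the 5% of cells with most UMIs the set 2 median was 0.42; the part of doublets was not tested further. Markers of other cells also moved with the class. The 4 haemoglobin genes summed to 44.1 CPM in cycling and 190 in not cycling cells of set 1 and to 15.2 and 231 in set 2. In set 1 the mast cell markers summed to 43.1 and 102 CPM (4 of 4 lower), the keratinocyte markers to 103 and 140 (4 of 5 lower) and the fibroblast and endothelial markers to 51.6 and 73.4 (3 of 3 tested lower). Their part was not tested.

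**Figure D3:**
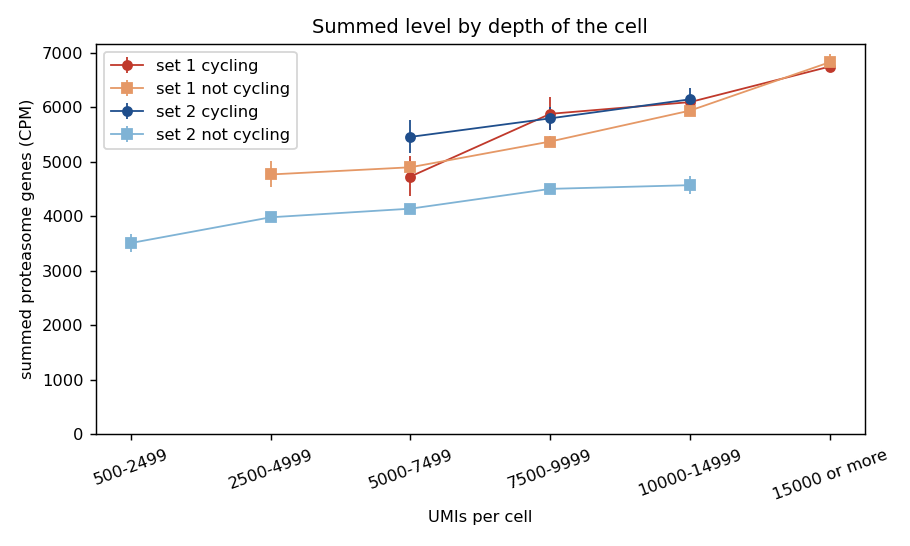
Summed CPM of all members (with exact Poisson 95% intervals) in bands of UMIs per cell, for cycling (circles) and not cycling cells (squares) of set 1 (red, orange) and set 2 (blue, light blue). The set 1 lines cross and end together at 15000 or more UMIs (6745 and 6825 CPM), with intervals that separate only at 7500 to 10000. In set 2 cycling cells lie above not cycling cells in each of the 3 bands shown for both classes. Bands with few cells of a class are not shown.

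Within cycling cells, those with more UMIs of 16 S phase genes than of 16 G2/M genes were set against the opposite. Members were called no more often than all genes between these stages. In set 1, 3 were higher and 2 lower of 47, where 11.6% and 16.4% of all genes were called higher and lower. In set 2, 1 was higher and 5 lower of 32, against 15.4% and 16.9% of all genes. The median log2 ratios were -0.08 and -0.11, with -0.03 and -0.01 for all genes. Most members lay below a ratio of 1, 34 of 47 in set 1 and 25 of 32 in set 2. In set 1 all 7 alpha and all 7 beta subunits tested did. The constitutive beta subunits of set 2 summed to 1299 CPM in S-leaning and 1540 in G2/M-leaning cells, with 3 of 7 lower. The ATPases there went the other way, at 726 and 667 CPM. Psmb9 was at 39.8 CPM in S-leaning and 53.1 in G2/M-leaning cells of set 1, a ratio of 0.750 (0.599 to 0.938). Psmc4, an ATPase, leaned the other way in both sets, at 113 and 86.4 CPM in set 1 (1.31, 1.12 to 1.53) and 112 and 80.7 in set 2 (1.39, 0.994 to 1.95).

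Between the sets, not cycling cells of set 2 had lower levels of most members than those of set 1. Of 47 members tested, 36 were lower and 0 higher (76.6% against 33.7% of all 8790 genes called lower), with a median log2 ratio of -0.47 against -0.12 for all genes. By role, 6 of 7 alpha, 7 of 7 beta, 5 of 6 ATPase, 9 of 11 non-ATPase subunits and 5 of 7 chaperones were lower. The beta subunits summed to 986 CPM in set 2 and 1530 in set 1 (0.644, 0.630 to 0.659). Psmd6, a lid subunit, was at 40.5 CPM (37.4 to 43.7) in set 2 and 94.4 (88.3 to 101) in set 1, the lowest ratio of all, 0.429 (0.387 to 0.475). Psmb2 (0.453), Psmb7 (0.463), Psmd1 (0.508) and Psmd12 (0.533) came next. These 5 stayed called lower in all 16 alternatives computed for them.

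The PA28 activator and Psmb9 did not share this difference. Psme1 was at 274 CPM in set 2 and 270 in set 1, a ratio of 1.01 (0.966 to 1.07), and Psme2 at 173 and 157 (1.102, 1.03 to 1.17). Psmb9 was at 27.3 and 25.7 CPM (1.06, 0.906 to 1.248), and Psmb8 at 130 and 150 (0.872, 0.815 to 0.933). Psmb10 was lower, at 31.0 and 47.2 CPM (0.657, 0.577 to 0.748). Psme3 was not called, and Psme4 was lower, at 22.5 and 33.7 CPM.

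Several other values moved with the sets. Malat1, a nuclear RNA, was at 23009 CPM in set 2 and 11431 in set 1, and 5 keratinocyte markers summed to 15.5 and 140 CPM, 4 mast cell markers to 0.429 and 102, 5 fibroblast and endothelial markers to 11.5 and 73.4, and 4 haemoglobin genes to 231 and 190. Their part in the members' difference was not tested. In cells of 5000 to 10000 UMIs, 22 of 46 members were lower (27.4% of all genes), with a median of -0.30. In cells with Xist and no Y-linked UMI the median was -0.42, and in those with Y-linked UMIs and no Xist it was -0.50, so both kinds of cell had the difference.

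Cycling cells of the sets differed less. Of 47 members, 10 were lower in set 2 and 1 was higher (21.3% and 2.13%, against 26.7% and 20.8% of all 6651 genes), a share of lower calls below that of all genes. The median was -0.12, and it turned to 0.10 in cells of 5000 to 10000 UMIs, where 28 members were tested. Psmd6, at 55.6 and 103 CPM (0.538, 0.430 to 0.667), the chaperone Psmd5 (0.605), Psmb7 (0.623), Psmd12 (0.660) and Psmb2 (0.698) had the lowest ratios. Psmb9 was the 1 member called higher, at 74.9 against 45.6 CPM (1.64, 1.33 to 2.02). Without the 5% of cells with most UMIs in each set, its log2 ratio of 0.72 became 0.07, so this call rests on the deepest cells.

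**Figure D4:**
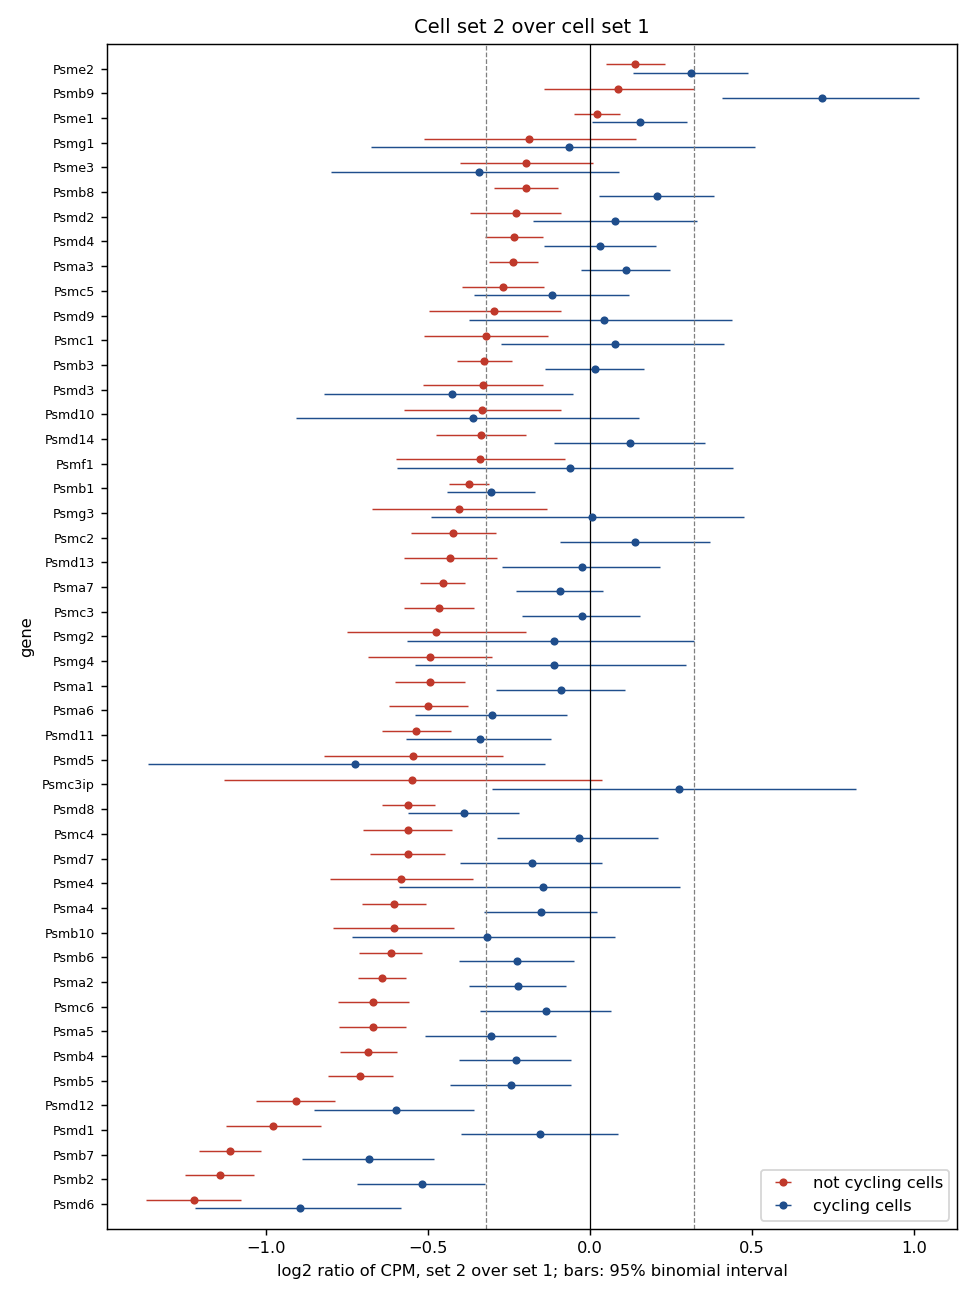
log2 ratio of CPM in set 2 over set 1 for each member tested, in not cycling (red) and cycling cells (blue), with exact binomial 95% intervals; dashed lines mark the call, 25% above or 20% below. Psmd6, Psmb2 and Psmb7 lie lowest in not cycling cells, and Psme1, Psme2 and Psmb9 lie at or above 0.

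The exchange of catalytic subunits was followed as the immunoproteasome share of the UMIs of each pair. For Psmb8 in Psmb8 plus Psmb5 the share was 46.2% (44.3 to 48.2%) in cycling and 47.5% (45.7 to 49.4%) in not cycling cells of set 1, and 54.0% (50.0 to 58.0%) and 56.3% (54.7 to 57.9%) in set 2. The classes of a set overlapped in their intervals and the sets did not. In cycling cells the sets did overlap after thinning (45.8 to 53.7% and 48.1 to 61.4%) and in cells with Xist and no Y-linked UMI. For Psmb9 in Psmb9 plus Psmb6 the share was 17.5% (15.8 to 19.3%) and 13.1% (11.6 to 14.7%) in set 1, and 28.96% (24.8 to 33.4%) and 19.7% (18.1 to 21.4%) in set 2. Class and set both separated in these counts. The classes overlapped after thinning in set 1 (14.93 to 22.29% and 11.75 to 17%) and in set 2 (22.78 to 36.68% and 18.27 to 22.9%). In set 1 they also overlapped in cells with only Xist or only Y-linked UMIs. The sets overlapped in not cycling cells with only Y-linked UMIs. For Psmb10 in Psmb10 plus Psmb7 the share was 17.3% (15.6 to 19.1%) and 18.0% (16.5 to 19.6%) in set 1, and 21.2% (16.7 to 26.4%) and 23.7% (22.0 to 25.6%) in set 2. In not cycling cells the higher set 2 shares went with lower levels of Psmb5, Psmb6 and Psmb7 (0.612, 0.653 and 0.463 of set 1). No immunoproteasome gene was called higher in set 2 there, with Psmb9 at a ratio of 1.06 (0.906 to 1.248). The intervals of the Psmb10 share overlapped between the sets in cycling cells. In not cycling cells they also overlapped after thinning and in cells with only Xist or only Y-linked UMIs. These are shares of RNA tags, and shares are compared between groups of cells and not between pairs.

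**Figure D5:**
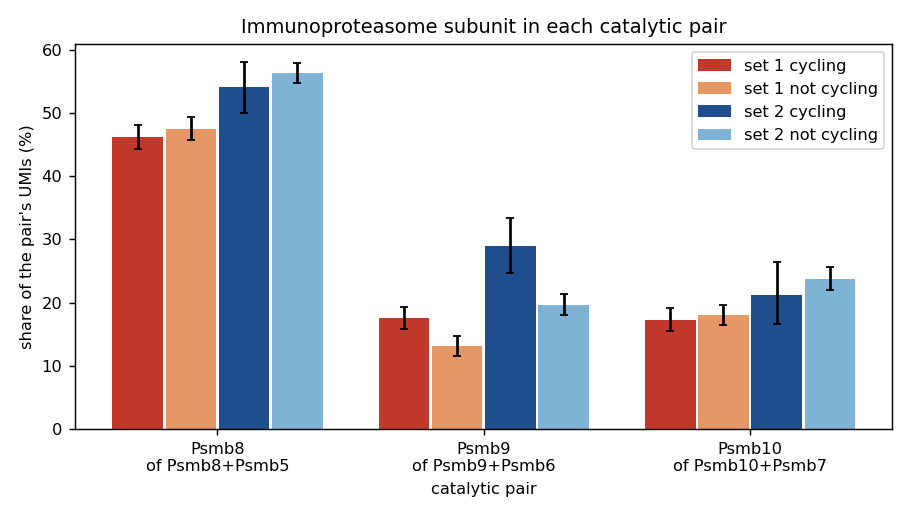
Share (%) of the UMIs of each catalytic pair that belong to the immunoproteasome gene, in cycling and not cycling cells of set 1 (red, orange) and set 2 (blue, light blue), with exact Clopper-Pearson 95% intervals. Set 2 lies above set 1 in the Psmb8 pair (54.0 and 56.3% against 46.2 and 47.5%), and in the Psmb9 pair cycling cells lie above not cycling cells in both sets.

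Not cycling cells with at least 5 UMIs of the heat-shock genes Hspa1a and Hspa1b, after thinning to 4000 UMIs, were set against the other not cycling cells. The members took no part in this split. This gave 224 against 710 cells in set 1 and 578 against 1681 in set 2. Median depth before thinning was 8263 UMIs in heat-shock-high and 10038 in other cells of set 1, and 5208 and 5527 in set 2. The part of depth in the medians below was not tested. In set 1, 11 of 46 members were lower and 1 higher in heat-shock-high cells (30.5% and 16.1% of all genes), with a median of -0.21 against -0.10 for all genes. In set 2, 6 were higher and 2 lower of 46 (26.7% and 18.5% of all genes), with a median of 0.05 against 0.07. The shares of members called lay below those of all genes in each case.

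Psmb9 was the member called higher in both sets. It was at 37.9 CPM in heat-shock-high and 22.1 in other cells of set 1 (1.72, 1.29 to 2.28) and at 44.0 and 22.1 in set 2 (1.99, 1.60 to 2.47). Psmb8 was at 168 and 119 CPM in set 2 (1.41, 1.27 to 1.56) and Psmb10 at 40.6 and 26.7 (1.52, 1.23 to 1.88). In set 1 their log2 ratios were 0.29 and 0.27, neither called. They were 0.33 for both in Xist-only cells and 0.45 and 0.49 in cells of 5000 to 10000 UMIs, where both were called higher, and 0.05 and -0.13 in cells with Y-linked UMIs and no Xist. Psmc1, an ATPase, was lower in both sets, at 24.9 and 45.6 CPM in set 1 and 22.8 and 37.8 in set 2. Of 12 interferon-response genes, 2 were higher and 1 lower of 6 tested in set 1 (median 0.13) and 4 higher and 0 lower of 8 in set 2 (0.37). Markers of cell types moved with this split as well. The ILC2 markers summed to 3274 CPM in heat-shock-high and 4406 in other cells of set 1 (2 higher and 5 lower of 9 tested) and to 3506 and 5687 in set 2 (0 and 6 of 9). The haemoglobin genes summed to 67.5 and 223 CPM in set 1 and 20.9 and 360 in set 2, the 8 T cell markers to 1410 and 1144 and to 1579 and 1407, and the mast cell markers to 52.0 and 113 in set 1. Their part in the members' differences was not tested.

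Proteasome partners outside the naming rule were looked at as a list of 16 genes, 13 of them in the table. In cycling cells 4 were higher and 0 lower in set 1, and 6 and 0 in set 2, with medians of 0.10 and 0.27, where 22.5% and 32.3% of all genes were called higher. Uchl5 and Usp14, the ubiquitin-removing enzymes that bind the 19S particle, had ratios of 2.06 and 1.38 in set 1 and 2.66 and 1.74 in set 2. Pomp, the chaperone that matures the core, had 1.07 and 1.56. Nfe2l1 had 0.925 and 1.00. Its RNA was at 36.3 CPM in cycling and 39.3 in not cycling cells of set 1. In set 2 it was at 38.0 CPM (29.34 to 48.45) and 38.0 (35.07 to 41.11). The part of its protein in the members' levels was not tested. Of 15 ubiquitin and shuttle genes, 5 were higher and 1 lower in cycling cells of set 2 (median 0.14), and 3 and 2 in set 1 (0.10), shares of higher calls close to those of all genes. Of 10 class I genes tested, 1 was higher in cycling cells of set 2, below the share of all genes, and 3 in set 1. Between not cycling cells, 4 of the 10 were higher and 0 lower in set 2 than in set 1, against 22.4% of all genes called higher. H2-K1, a class I heavy chain, had a ratio of 1.73 there and B2m, its light chain, 1.31.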

How the data were processed

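Per the labels' protocols, sorted skin cells were captured with the 10x 5' kit, and the submitters' processing notes list Cell Ranger 3.1.0, Seurat 4.1.0 and the mm10 build, with neither settings nor strand. The authors deposited 1 table of UMI counts, whole numbers with no scaling. Set 1 kept 16514632 UMIs and set 2 18026148 after 30 and 267 cells above 10% mitochondrial UMIs were left out.

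UMIs were summed per set and class, given per 1000000 as CPM with exact Poisson intervals, and compared as ratios with exact binomial intervals (Python 3.11.15, scipy 1.17.1), all covering counting error only. With 1 library assumed per suffix and no map to the days, no test was run. Doublets were not removed. The ratio code was run on simulated Poisson counts with known changes. These held no differences between cells or libraries, so the run checked the code and not the results. Overlaps came from GENCODE M21 and sequences from RefSeq. Named genes were up to 5 called members with the largest ratio per direction, the catalytic pairs, the activators, members against their role and up to 4 of each other list. Members and lists were chosen with earlier results of these data known. The 19 alternatives cover call size, UMI minimum, scaling, thinning, depth, cycling rule and sex-linked RNA.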

Additional observations from a re-analysis of the deposited data

Results flagged for a closer look

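Cells above the mitochondrial limit entered no comparison, and the members were measured there too. In set 1 the 30 such cells had 3772 CPM (3384 to 4192) summed over the members, with a median of 2270 UMIs per cell, and in set 2 the 267 such cells had 2116 CPM (1952 to 2289), with a median of 898. Both values lie above the limit that a count of 0 allows and below the 5724 and 4128 CPM of not cycling cells of the same set.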

How the results depend on the processing

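Of the summary values, 167 kept their direction and size under the alternatives, 32 moved and 1 reversed. For single members the counts were 3023, 356 and 7. Members called (higher in cycling cells of set 1, of set 2, lower in set 2 among not cycling cells, among cycling cells) numbered 3, 20, 13 and 4 at a ratio of 1.5, while at 1.1 the first was 30 and the last 22. The share of all genes called changes with the call size too. Where that share is not given here or above, a count shows the effect of the setting and is not a result about the members. Median-of-ratios scaling gave 7 in set 1, a set 2 median of 0.46 and 6 lower in cycling cells. Totals without ribosomal protein and mitochondrial genes gave 6, medians of 0.12 and 0.43, and 16. Thinning to 4000 UMIs gave 19 in set 1. Without the 5% of cells with most UMIs the set 2 median was 0.42 and 18 were lower in cycling cells. Depth weighting gave 4 and 0.0475 in set 1. In cells of 5000 to 10000 UMIs, added after seeing the data, 7 were called in set 1 with a median of 0.0422, the set 2 median was 0.43, 22 were lower in not cycling cells (-0.30) and 4 in cycling cells, whose median reversed to 0.10. Fewer members could be tested there; the cause of the other shifts was not tested.

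In the catalytic pairs, thinning gave 49.8% for Psmb8 and 14.8% for Psmb10 in cycling cells of set 1. In not cycling cells, Xist-only cells gave 54.7% for Psmb8 in set 2 and 21.2% for Psmb10 in set 1, and Y-only cells 17.3% for Psmb9 in set 2 and 16.3% and 21.0% for Psmb10 in sets 1 and 2. The heat-shock median of set 1 was -0.0908 at 1 UMI or more. Reversed log2 ratios were those of Psmf1 (set 2, -0.0040 without the deepest cells and -0.0748 at 5000 to 10000 UMIs), Psme3 (set 2 over set 1, cycling, 0.12 in Y-only cells) and, at 5000 to 10000 UMIs, Psmd13 (-0.34) and Psmd14 (-0.15) in set 1, Psma5 (-0.0277) in set 2 and Psmd11 (0.14) between cycling cells. No paired analysis was possible because each set is taken as 1 library. Taken as 3 UMIs, a count of 0 allows up to 1.75 CPM in cycling cells of set 2, the group with the fewest UMIs, and 0.421 in those of set 1.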
